A study of Mus musculus with 9 samples.

Results

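The genes described here belong to the Wnt pathway, in which cells signal to each other with secreted lipid-carrying proteins. They were chosen by name from the authors' 3 tables of changed genes, which compare mouse esophageal epithelial organoids in pairs. A gene was taken if its name started with Wnt, Fzd, Dkk, Sfrp, Rspo, Nkd or Tcf7, or if it was 1 of 23 pathway genes named singly. This gave 36 of 8742 listed genes, each protein-coding. GENCODE M21 holds 70 protein-coding genes that fit these names, and the other 34 have no values in the tables used here. Among those with values were 9 of 19 Wnt genes, 7 of 10 Fzd genes, 1 of 5 Dkk genes, 1 of 4 Sfrp genes, 1 of 3 Tcf7 genes and 17 of the 23 named singly. No Rspo and no Nkd gene has values here, and Apc, Gsk3b, Lrp6, Rnf43, Kremen2 and Ror2 are not analysed here. Because the authors' calls decided which genes could enter, the tests below describe these genes and add no independent evidence that they differed.

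Wnt ligands are modified with a lipid by the enzyme Porcn, leave the cell bound to the carrier Wls and bind a Frizzled receptor (Fzd) together with a co-receptor such as Lrp5. Dvl proteins then take Axin away from the complex that destroys β-catenin, and β-catenin reaches the nucleus to act with factors of the TCF/LEF family. Branches that work without β-catenin run through Ror receptors and the planar cell polarity proteins. R-spondins, through Lgr4, Lgr5 and Lgr6, keep the ubiquitin ligases Znrf3 and Rnf43 from removing Frizzled receptors. Secreted antagonists such as Wif1 and Sfrp1 bind Wnts outside the cell. In stratified squamous epithelium such as that of the esophagus, the pathway is known for its part in the maintenance of the dividing basal layer.

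Organoids, small bodies that esophageal epithelial cells form in culture, were harvested 7 days after seeding, and their total RNA was sequenced. The wild-type group (WT) had no edit. In the other groups the genotype is given as a knockout: of Trp53 with Notch1 in the PN group, and of Trp53 with Cdkn2a and Notch1 in the PCN group. Both edited groups thus share the labelled loss of Trp53 and Notch1. Each group has 3 libraries, and none received a treatment. Nothing says that the 3 came from separate mice, clones or cultures, so the p-values measure the spread between these libraries, which may be technical. The sources used here give no strain or age and do not say how the edits were made. In bulk RNA, fewer cells of a type and less RNA per cell cannot be told apart.

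The depth, as library totals worked back from the tables, was 14695420–15093994 counts for WT, 16857744–18912526 for PN and 17422590–20198041 for PCN. Levels are in CPM, the counts of a gene scaled to the total of its library. Trp53 averaged 120.1 CPM over the WT libraries, 2.61 over PN and 3.07 over PCN, and Notch1 averaged 244, 148 and 71.3 CPM. Cdkn2a, which the PCN label names as knocked out, averaged 9.0 CPM for WT, 22.1 for PN and 65.2 for PCN. Its RNA was thus not lower in the group labelled as its knockout. Because the edited stretch is not given, RNA level can neither bear out nor contradict the label. The third group is therefore called "labelled PCN", or PCN for short, below, and every direction drawn from it rests on that label. WT replicate 3 stood apart from the other WT libraries: the chi-square per degree of freedom between its counts and theirs was 29.3 and 20.4, against 10.4 between WT replicates 1 and 2. The epithelial markers Cdh1 and Epcam summed to 1138–1241 CPM in WT, 809–862 in PN and 707–737 in the libraries labelled PCN. None of 9 fibroblast markers and none of 6 markers of muscle and glia have values in the tables. Of 6 leukocyte markers Cd68 has values, at 94.0–119, 23.8–27.0 and 15.0–16.9 CPM, and of 4 endothelial markers Esam, at 4.55–11.7 CPM over the 9 libraries; the part of these cell types in the results was not tested.

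Values of CPM are given per library or as the mean ± SD over 3 libraries. CPM does not allow for gene length, so levels of different genes are compared only as FPKM, the authors' fragments per kilobase of gene, scaled to the library total. Fold changes are log2 values ± standard error from edgeR's quasi-likelihood fit of each pair, and its adjusted p is over all genes the authors adjusted over, with a threshold of 0.05.

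Against WT, 7 Wnt ligands and Porcn were lower in both edited groups, while most of the called receptors and inhibitors were higher. In the counts below, a fitted gene is one that the authors' table for the pair lists and that passed the minimum count, so each had the authors' call already. In PN, 26 of the 36 genes were in the authors' table. Of the 36, 15 were higher and 11 lower, while 34.6% of the 8742 listed genes were called higher and 36.9% lower. In the libraries labelled PCN, 28 genes could be fitted. Of the 36, 18 were higher and 10 lower there, beside 34.6% and 37.6% of all listed genes. Ror1 and Wnt10b were also in that table, below the minimum count for the fit. Between the libraries labelled PCN and PN, 20 genes were in the table. Of the 36, 10 were higher and 10 lower in PCN, beside 20.7% and 19.4% of all listed genes. The choice of members used these same calls, so nothing is read from the shares. The median log2 change of the fitted members was 0.51 in PN, 0.47 in the libraries labelled PCN and 0.01 between these groups, and over all fitted genes it was -0.26, -0.28 and 0.16. No fitted member overlapped between the libraries of its pair (26, 28 and 20 genes), as was so for 98.6%, 98.2% and 97.9% of all fitted genes. Both comparisons with WT use the same 3 WT libraries.

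**Figure D1:**
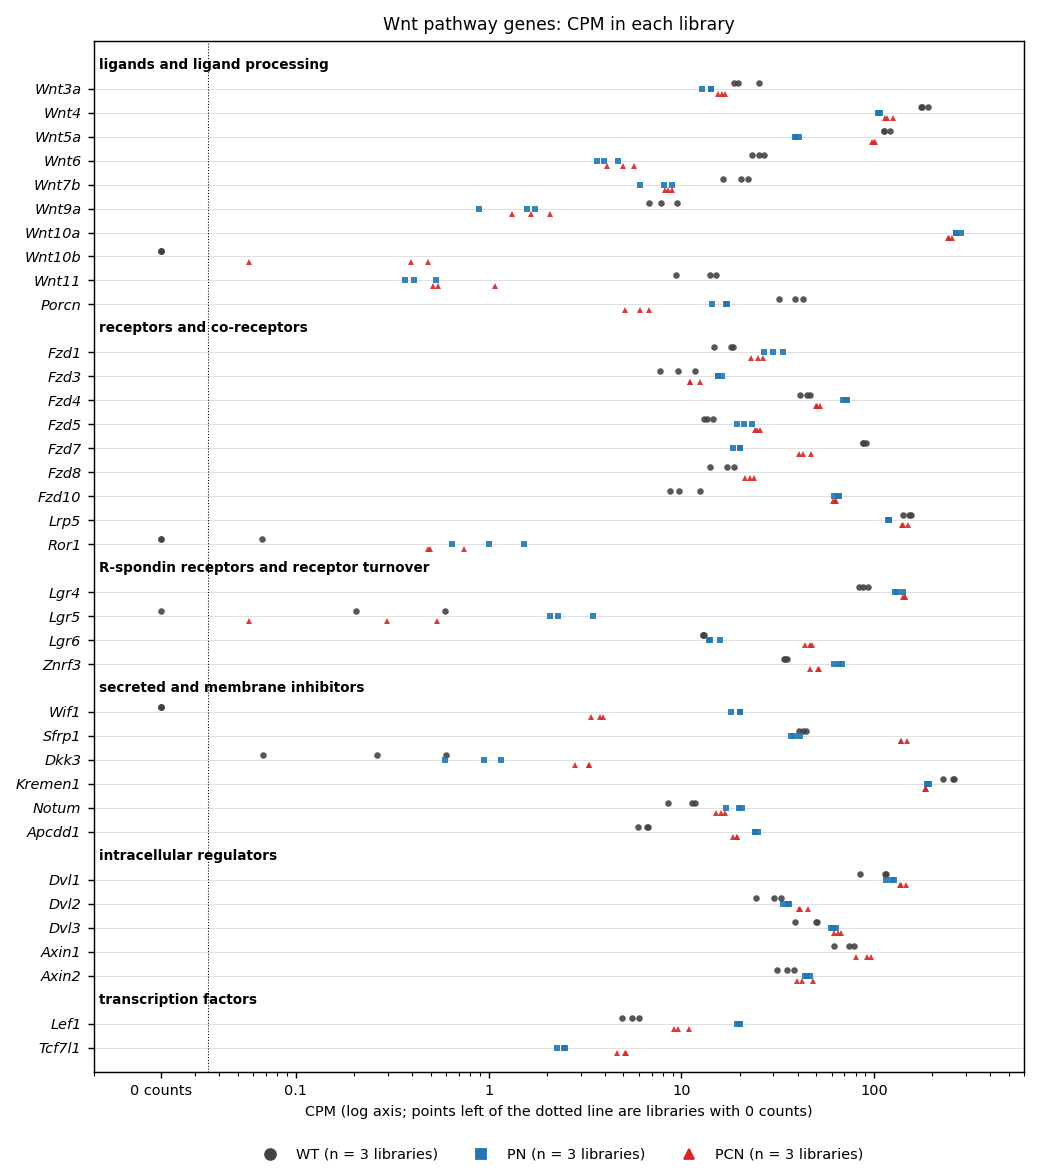
CPM (log axis) of the 36 Wnt pathway genes, by role, in each of the 9 libraries; a point is 1 library, and points left of the dotted line have 0 counts. The 7 Wnt ligands with values in each group lie lower in PN and in the libraries labelled PCN than in WT, Wif1 and Wnt10b have no count in WT, and genes without points for a group have no values there.

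Wif1, the secreted Wnt inhibitory factor that binds Wnt ligands outside the cell, was counted in each edited library and in no WT library. The gene spans bases 121033960 to 121100650 of chromosome 10 on the plus strand (GRCm38). No count fell on it in WT replicate 1, 2 or 3. In PN it had 339, 305 and 380 counts, or 20.1, 18.0 and 20.1 CPM. In the libraries labelled PCN it had 79, 66 and 63 counts, or 3.91, 3.79 and 3.38 CPM. The 3 groups lay apart, with PN highest. A WT group with no counts allows up to 0.0670 CPM (3 counts over its 3 libraries, for counting error only). Against that limit Wif1 was at least 289.6-fold higher in PN and at least 55.2-fold higher in the libraries labelled PCN. With 1 WT library left out, the limit is higher and the bounds were 192–195 and 36.6–37.1. Between the edited groups both levels were measured: Wif1 was 5.24-fold lower in the libraries labelled PCN than in PN (log2 change -2.39 ± 0.13, edgeR adjusted p = 6.43e-15). The genes around Wif1 did not share its direction. Of 5 other fitted genes within 500 kb, 3 were higher and 2 lower in PN against WT, and 2 were higher and 3 lower in the libraries labelled PCN.

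The promoter of Wif1 is shown because it belongs to the gene with no RNA count in WT. The 300 bases come from RefSeq (GRCm38.p6, chr10:121033754-121034053, plus strand) and run from 250 bases before the RefSeq start to the end of the first 50 transcribed bases. The single capital marks the start base, and the gene's first base in the authors' tables lies inside the window.
Wif1: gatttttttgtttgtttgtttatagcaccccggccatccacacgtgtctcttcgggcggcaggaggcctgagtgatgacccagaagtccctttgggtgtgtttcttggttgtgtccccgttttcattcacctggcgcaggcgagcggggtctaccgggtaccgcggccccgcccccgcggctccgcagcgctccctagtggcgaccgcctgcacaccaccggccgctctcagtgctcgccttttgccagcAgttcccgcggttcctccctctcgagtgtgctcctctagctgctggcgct

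The Wnt ligands that could be fitted were lower against WT. Wnt10b, below the minimum count, was not, and Wnt10a was not listed against WT. In PN, 8 of 8 fitted genes of this group (7 ligands and Porcn) were lower, with a median log2 change of -1.44, and in the libraries labelled PCN 8 of 8 were lower, with a median of -1.72. Over all fitted genes, 3226 of 6295 were lower in PN and 3288 of 6404 in PCN. Over the same comparisons, the summed level of suprabasal squamous markers was lower. Summed over 7 of 8 markers with values (Ivl, Krt13, Krt4, Mal, Sbsn, Sprr3 and Tgm3), they ranged over 28229–30024 CPM among WT libraries, 4523–4809 among PN libraries and 4972–5214 among those labelled PCN. Krt13 and Krt4 made up most of this sum, and not each marker went with it: Ivl averaged 22.6 CPM for WT, 22.1 for PN and 16.2 for PCN. Basal markers (6 of 8 with values) summed to 5784–6621, 6021–6137 and 7936–8378 CPM. Within that list the genes differed in course, with Krt15 at 300.4, 731 and 1644 CPM on average and Itgb4 at 1320, 981 and 1002 CPM. The part of cell composition in the ligand levels was not tested.

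Wnt11, a ligand best known for signalling without β-catenin, showed the largest fall among the ligands. Its gene lies on chromosome 7, bases 98835112 to 98855195, plus strand. It had 15.2, 14.1 and 9.41 CPM in WT and 0.534, 0.412 and 0.370 CPM in PN. In the libraries labelled PCN it had 0.545, 0.517 and 1.07 CPM. Edited and WT libraries did not overlap, and the edited groups did. The log2 change was -4.85 ± 0.29 in PN (28.8-fold, edgeR adjusted p = 3.06e-08) and -4.16 ± 0.29 in the libraries labelled PCN (17.9-fold, 8.09e-08). The edited libraries held 7 to 20 counts each, which limits how well their levels are known.

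Wnt6, a ligand made by many epithelia, had 26.7, 25.4 and 23.3 CPM in WT. In PN it had 4.69, 3.95 and 3.65 CPM, and in the libraries labelled PCN 4.11, 4.99 and 5.69 CPM. The lowest WT library was above every edited library, and PN and PCN overlapped. The log2 change was -2.61 ± 0.14 in PN (edgeR adjusted p = 1.11e-08) and -2.35 ± 0.15 in PCN (2.12e-08). Wnt9a, a ligand known from joint and blood stem cell development, went from 7.81, 9.53 and 6.82 CPM in WT to 0.890, 1.59 and 1.74 CPM in PN. It had 2.08, 1.32 and 1.66 CPM in the libraries labelled PCN. Here too each WT library exceeded each edited one, by log2 changes of -2.49 ± 0.26 in PN (edgeR adjusted p = 5.94e-06) and -2.24 ± 0.24 in PCN (4.36e-06). Wnt7b, an epithelial ligand, had 22.1, 20.3 and 16.5 CPM in WT, 8.90, 8.13 and 6.08 in PN, and 8.47, 8.21 and 8.91 in the libraries labelled PCN. Its libraries separated WT from both edited groups, with log2 changes of -1.34 ± 0.16 (edgeR adjusted p = 2.43e-05) and -1.20 ± 0.14 (1.12e-05). For Wnt6, Wnt7b and Wnt9a the authors' table of PCN against PN holds no entry, and the values there were 0.27 ± 0.19, 0.15 ± 0.15 and 0.26 ± 0.32.

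Wnt5a, the ligand most often tied to Ror receptors and planar cell polarity, was the ligand in which the edited groups differed most. It had 113, 112 and 120.0 CPM in WT and 39.3, 40.5 and 38.8 CPM in PN. The libraries labelled PCN had 97.2, 101 and 99.8 CPM. The 3 groups did not overlap, and the libraries labelled PCN lay near WT. Wnt5a was lower in PN by a log2 change of -1.53 ± 0.07 (edgeR adjusted p = 3.64e-09), and higher in PCN than in PN by 1.33 ± 0.06 (6.61e-17). The difference between PCN and WT was small, -0.20 ± 0.07 (edgeR adjusted p = 0.0369). That call was lost with TMM scaling (adjusted p = 0.210) and without WT replicate 2 or any 1 library labelled PCN (0.0579 to 0.164). Wnt5a lies on chromosome 14 (28504750 to 28527448, plus strand), where most listed genes took the same course. On that chromosome 259 of 276 called genes (93.8%) were lower in PN than in WT, with a median log2 change of -0.68 over the fitted genes. Between the libraries labelled PCN and PN, 322 of 327 called genes there were higher, with a median of 0.61. The part of the chromosome in the Wnt5a values was not tested. Gm2670, an antisense transcript that shares 358 exon bases with Wnt5a, was also lower in PN (log2 change -1.99). Whether counting used strand is not given in the sources used here, so reads of the gene and its antisense partner cannot be told apart. Genes on the opposite strand also share exon bases with Fzd5 (1233), Wnt11 (364), Wnt7b (324), Axin2 (209), Tcf7l1 (179) and Dvl1 (36). The same limit holds for these and for Notum, Dvl2 and Lef1.

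Wnt4, a ligand with roles in kidney and reproductive tract development, had the highest level per length of the 7 ligands with values in all 9 libraries. It had 176, 175 and 189 CPM in WT, 105, 107 and 106 in PN, and 117, 125 and 114 in the libraries labelled PCN. WT libraries lay above all edited ones, with log2 changes of -0.75 ± 0.07 in PN (edgeR adjusted p = 1.12e-06) and -0.60 ± 0.07 in PCN (1.61e-05). Between the edited groups the difference of 0.16 ± 0.05 (adjusted p = 0.0206) was lost under several alternatives. Wnt3a, the classic ligand of the β-catenin branch, had 25.3, 19.6 and 18.6 CPM in WT and 12.8, 14.3 and 14.3 in PN. In the libraries labelled PCN it had 16.1, 16.8 and 15.5 CPM, between the other groups and apart from both. It was lower in PN by a log2 change of -0.61 ± 0.14 (edgeR adjusted p = 0.00279). The change of -0.39 ± 0.13 in PCN (adjusted p = 0.0322) was lost without WT replicate 1 (-0.24, adjusted p = 0.214), without any 1 library labelled PCN (0.0657 to 0.117) and with TMM scaling (0.0941).

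Wnt10a and Wnt10b, close relatives that act in skin and its appendages, have values in some groups only. Wnt10a had 282, 266 and 266 CPM in PN and 241, 253 and 243 CPM in the libraries labelled PCN. These groups did not overlap, and the difference was small, -0.14 ± 0.05 (edgeR adjusted p = 0.0164), and lost with the replicate number as a block (0.0769), without PN replicate 1 (0.148) or without PCN replicate 1 (0.0835). Per length, Wnt10a stood at 109.9 ± 3.66 FPKM in PN and 99.5 ± 2.48 FPKM in the libraries labelled PCN. Neither of the authors' tables against WT lists Wnt10a, so it was called neither lower nor higher there. Its WT level has no value here, so it is missing from the sums below. Wnt10b had no counts in the 3 WT libraries and 8, 1 and 9 counts in those labelled PCN. Against the 3-count limit it was at least 4.78-fold higher there, at least 6.53-fold without PCN replicate 2 and at least 3.16-fold without WT replicate 3. PCN replicate 2, with 1 count, was near the WT libraries.

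The FPKM values of the 7 ligands with values in all 9 libraries summed to 86.3 ± 1.74 for WT, 39.3 ± 0.515 for PN and 51.5 ± 1.56 for the libraries labelled PCN. The 3 groups did not overlap in this sum. Wnt4 made up 49.8% of it in WT, 64.3% in PN and 54.9% in PCN. Wnt5a made up 17%, 12.9% and 24.7%, with its highest share in the libraries labelled PCN. The sum covers listed genes and is not the whole output of Wnt ligands. It leaves out Wnt10a, which alone stood at 109.9 FPKM in PN and 99.5 FPKM in the libraries labelled PCN. Both values lie above the sum of the 7 ligands in the same group.

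**Figure D2:**
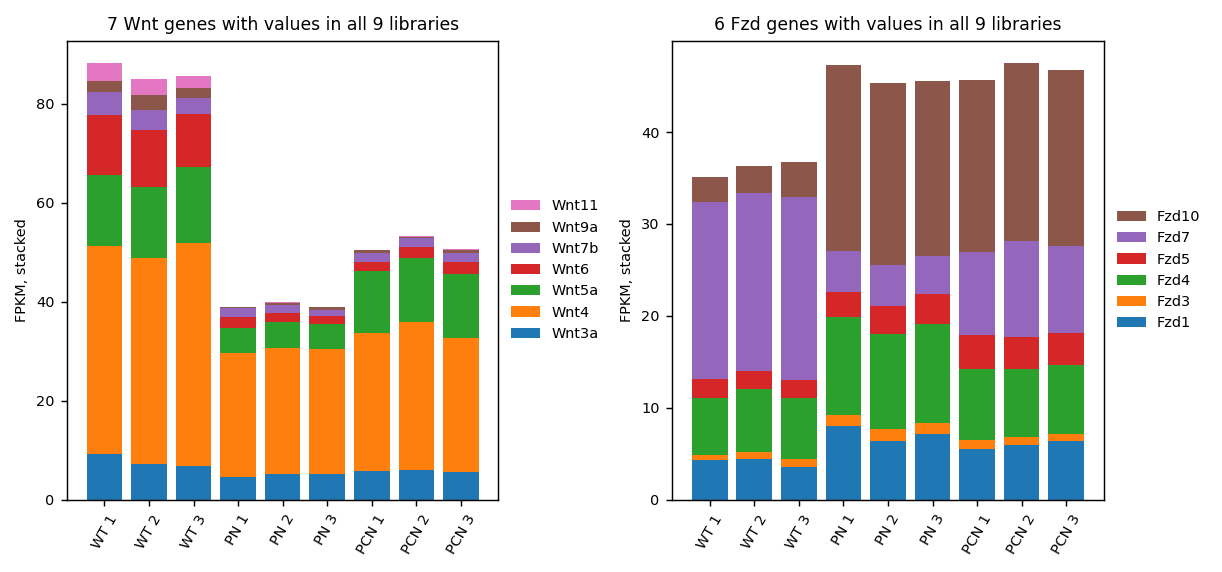
Stacked FPKM of 7 Wnt genes (left) and 6 Fzd genes (right) in each of the 9 libraries, replicates 1 to 3 of WT, PN and the group labelled PCN. The Wnt sum falls from 85.1–88.3 (WT) to 39.0–39.9 (PN) and 50.5–53.3 (PCN), while the Fzd bars change their makeup from Fzd7 to Fzd10.

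Porcn, the enzyme that adds the lipid without which Wnt ligands are not secreted, was lower in PN than in WT and lower again in the libraries labelled PCN. Its gene is on chromosome X, bases 8193848 to 8206525, minus strand. WT libraries had 42.5, 38.7 and 32.0 CPM, PN libraries 17.1, 17 and 14.4 CPM, and those labelled PCN 6.09, 5.11 and 6.77 CPM. The groups were ordered WT, PN, PCN with no overlap. Porcn was lower than in WT by log2 changes of -1.21 ± 0.13 in PN (edgeR adjusted p = 5.56e-06) and -2.65 ± 0.15 in PCN (6.12e-09), and lower in PCN than in PN by -1.43 ± 0.13 (4.98e-10). Of the 4 genes of the ligand group that the authors' table of PCN against PN lists, Porcn had the largest fall.

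Receptors of the Frizzled family changed in both directions. In PN, 6 of 8 fitted receptors and co-receptors were higher (Fzd1, Fzd3, Fzd4, Fzd5, Fzd10 and Ror1) and 2 lower (Fzd7 and Lrp5), with a median log2 change of 0.70. In the libraries labelled PCN, 4 of 5 were higher (Fzd1, Fzd5, Fzd8 and Fzd10) and Fzd7 was lower, with a median of 0.54. Over all fitted genes, 3022 of 6295 were higher in PN and 3028 of 6404 in PCN. The genes Fzd10 and Fzd7 stood out in opposite directions.

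Fzd10, a Frizzled receptor with little expression in most adult tissues, lies on chromosome 5 (128600844 to 128604093, plus strand). It had 8.68, 9.66 and 12.5 CPM in WT, 65.8, 64.5 and 62.0 CPM in PN, and 60.8, 63.1 and 62.5 CPM in the libraries labelled PCN. Every edited library lay above every WT library, and the edited groups overlapped. The log2 change was 2.65 ± 0.12 in PN (6.27-fold, edgeR adjusted p = 2.48e-09) and 2.60 ± 0.12 in PCN (6.05-fold, 1.20e-09). Between the edited groups it was -0.05 ± 0.06, outside the authors' table. Fzd7, a receptor used by stem cells of the intestine, is on chromosome 1 (59482424 to 59486955, plus strand). It went the other way, from 87.3, 87.6 and 90.3 CPM in WT to 20.1, 20.2 and 18.5 CPM in PN. The libraries labelled PCN had 40.9, 47.2 and 42.9 CPM and lay between the other groups without overlap. Fzd7 was lower by a log2 change of -2.16 ± 0.08 in PN (edgeR adjusted p = 3.80e-10) and -1.02 ± 0.08 in PCN (2.62e-07), and higher in PCN than in PN by 1.15 ± 0.08 (1.62e-12).

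Per length, the 6 Frizzled receptors with values in all 9 libraries summed to 36.1 ± 0.852 FPKM for WT, 46.1 ± 1.09 for PN and 46.7 ± 0.971 for the libraries labelled PCN. Fzd7 made up 54.1% ± 0.835 of the sum in WT, 9.38% ± 0.448 in PN and 20.6% ± 1.12 in PCN. Fzd10 made up 8.76% ± 1.52, 42.8% ± 0.961 and 41.0% ± 0.133. The most abundant listed Frizzled per length was thus Fzd7 in WT and Fzd10 in both edited groups. Fzd4, the receptor of the ligand norrin as well as of Wnts, made up 18.2%, 22.9% and 16.2%.

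The remaining Frizzled genes differed less. Fzd4 had 41.3, 46.5 and 44.7 CPM in WT, 71.2, 69.1 and 72.0 in PN, and 52.0, 49.9 and 50.3 in the libraries labelled PCN. It was higher in PN than in WT (log2 change 0.69 ± 0.08, edgeR adjusted p = 1.12e-05) and lower in PCN than in PN (-0.48 ± 0.06, 1.39e-07), with no overlap in either pair. Fzd3, a receptor of axon guidance and planar polarity, had 7.75, 9.59 and 11.7 CPM in WT and 15.4, 16.3 and 15.5 in PN. The libraries labelled PCN had 12.5, 11.0 and 11.1 CPM and overlapped with WT. Its changes were 0.71 ± 0.15 in PN against WT (edgeR adjusted p = 0.00190) and -0.45 ± 0.11 in PCN against PN (0.00184). Fzd3 lies on chromosome 14 like Wnt5a, and both of its changes ran against the course of most genes there: it was 1 of 17 genes of that chromosome called higher in PN than in WT, and 1 of 5 called lower in PCN than in PN. Fzd1 and Fzd5 were higher in both edited groups, Fzd1 at 17.1 ± 2.05, 30.2 ± 3.40 and 24.8 ± 1.75 CPM in WT, PN and PCN, and Fzd5 at 13.7 ± 0.807, 21.2 ± 1.94 and 24.7 ± 0.864 CPM. The lower Fzd1 of PCN against PN (log2 change -0.28 ± 0.09, edgeR adjusted p = 0.0140) was lost without PN replicate 1 (0.211) or PCN replicate 1 (0.116). Fzd8, with no values for PN, had 16.6 ± 2.36 CPM in WT and 22.7 ± 1.18 in the libraries labelled PCN (0.45 ± 0.13, edgeR adjusted p = 0.0110), a call that was lost without PCN replicate 3 (0.0531).

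Lrp5, a co-receptor of the β-catenin branch, had 152, 154 and 141 CPM in WT, 119.6, 117 and 119 in PN, and 139, 149 and 141 in the libraries labelled PCN. PN lay below both other groups, which overlapped with each other. The log2 change was -0.32 ± 0.07 in PN against WT (edgeR adjusted p = 0.00183) and 0.27 ± 0.05 in PCN against PN (9.09e-05). Ror1, a receptor tyrosine kinase that binds Wnt5a, was barely counted. It had 1, 0 and 0 counts in WT, 17, 11 and 29 in PN, and 10, 13 and 9 in the libraries labelled PCN. Every edited library had more counts than any WT library. Its pooled CPM was 48.4 times that of WT in PN (exact 95% interval 8.34–1943) and 25.5 times in PCN (4.25–1037), for counting error only. The single WT count was in replicate 1, and without that library Ror1 was at least 10.7-fold higher in PN and at least 5.65-fold higher in PCN.

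**Figure D3:**
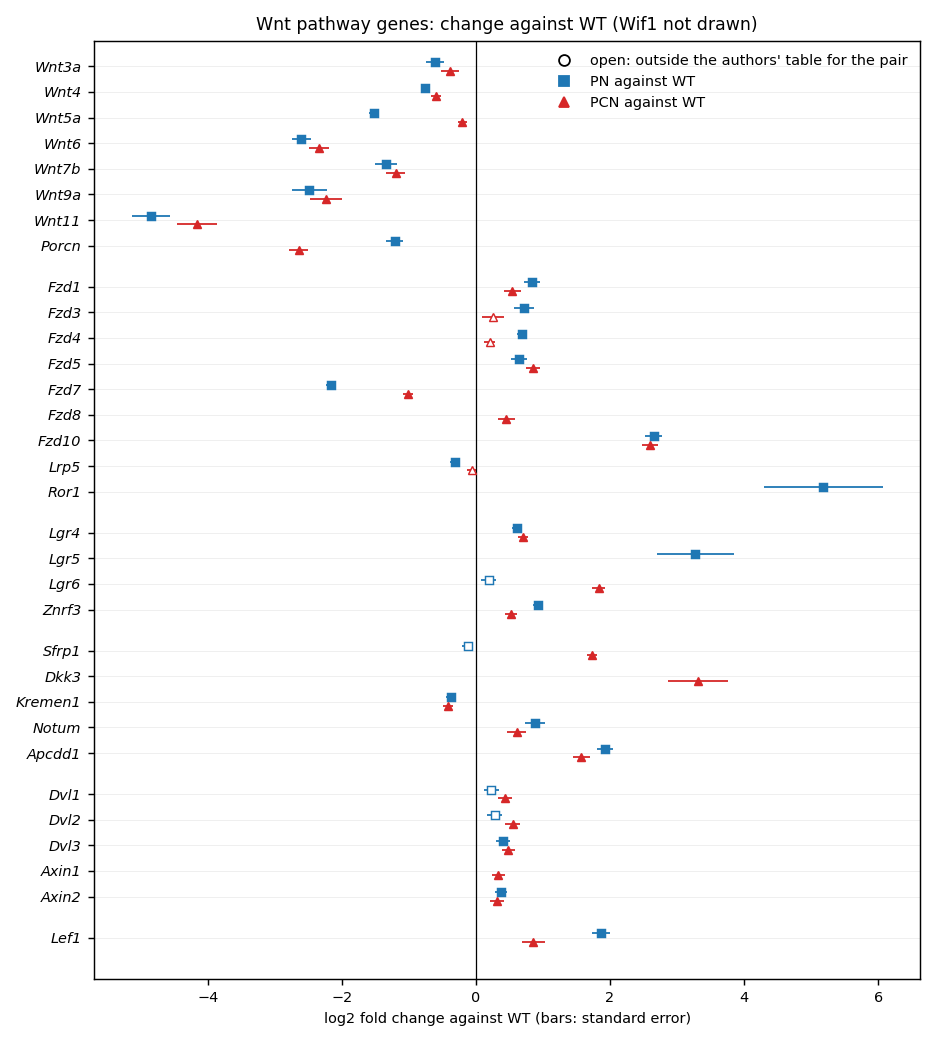
log2 fold change against WT ± standard error for PN (squares) and the libraries labelled PCN (triangles), ordered by role; open symbols are outside the authors' table for that pair and were not called. The 7 Wnt ligands and Porcn lie left of 0, Fzd10 and Fzd7 lie on opposite sides, and members without a fitted value, such as Ror1 of PCN, are not drawn. Wif1 is left out because its fitted value against a WT group with no counts depends on the prior count.

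Of the R-spondin receptors, Lgr4 was higher than in WT in both edited groups, Lgr5 in PN and Lgr6 in the libraries labelled PCN, and the ubiquitin ligase Znrf3 was higher in both. The median log2 change of the 3 genes called in each group was 0.92 in PN and 0.70 in PCN. Lgr6 in PN was not called, and Lgr5 in PCN overlapped with WT. Lgr5, the marker of intestinal stem cells and a receptor of R-spondins, differed between the edited groups. Its gene spans 115450311 to 115587780 on the minus strand of chromosome 10. It had 0, 3 and 9 counts in WT, 35, 39 and 66 in PN, and 6, 1 and 10 in the libraries labelled PCN. In CPM, PN had 2.08, 2.30 and 3.49, above the highest WT library (0.596) and the highest library labelled PCN (0.537). WT and PCN overlapped. Lgr5 was higher in PN than in WT by a log2 change of 3.27 ± 0.57 (edgeR adjusted p = 0.000478) and lower in PCN than in PN by -3.10 ± 0.41 (9.24e-07). WT replicate 3 held 9 of the 12 WT counts. Without it the change against WT was 4.61, with 140 counts in PN and 3 in WT, a ratio of 26.2 (8.80–129). Without PCN replicate 3 the change between the edited groups was -3.78. Even in PN its level was low for its length, at 0.255 ± 0.0741 FPKM.

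Lgr6, a relative that marks stem cells of the hair follicle, was higher in the libraries labelled PCN. The gene is on chromosome 1 (134983301 to 135105276, minus strand). It had 12.9, 12.9 and 13.1 CPM in WT, 14.1, 14.0 and 15.8 in PN, and 46.3, 43.9 and 47.5 in those labelled PCN. PCN lay far above the other groups, with log2 changes of 1.83 ± 0.10 against WT (edgeR adjusted p = 4.47e-09) and 1.65 ± 0.08 against PN (8.80e-16). PN against WT was outside the authors' table, at 0.19 ± 0.12. Lgr5 and Lgr6 thus were each high in a different edited group. Lgr4, the widely expressed member, had 87.9 ± 4.66 CPM for WT, 133 ± 6.44 for PN and 143 ± 2.09 for PCN, log2 changes of 0.61 ± 0.07 (edgeR adjusted p = 1.81e-05) and 0.70 ± 0.07 (3.41e-06) against WT. Per length Lgr4 was the most abundant of these receptors in each group, at 14.9 ± 0.791, 22.7 ± 1.09 and 24.3 ± 0.356 FPKM. Znrf3, which removes Frizzled receptors from the cell surface, had 34.6, 35.2 and 34.1 CPM in WT, 62.0, 68.2 and 65.3 in PN, and 51.6, 46.1 and 50.7 in PCN. The groups did not overlap, with changes of 0.92 ± 0.08 in PN (edgeR adjusted p = 8.37e-07) and 0.52 ± 0.09 in PCN (0.000221) against WT and -0.40 ± 0.06 between them (1.32e-05).

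Besides Wif1, 5 inhibitors had values, and they fell into different patterns. Sfrp1, a secreted decoy with a Frizzled-like domain, differed in the libraries labelled PCN. Its gene lies on chromosome 8 (23411502 to 23449632, plus strand). It had 40.7, 44.0 and 42.7 CPM in WT, 41.0, 38.3 and 37.1 in PN, and 138, 147 and 137 in those labelled PCN. WT and PN overlapped, and PCN lay above both. The log2 change was 1.73 ± 0.08 against WT (edgeR adjusted p = 7.18e-10) and 1.86 ± 0.06 against PN (3.19e-20), and PN against WT, outside the authors' table, had -0.12 ± 0.08. Dkk3, a divergent member of the Dickkopf family, was also highest in the libraries labelled PCN, at low counts. WT had 9, 1 and 4 counts, PN 10, 16 and 22, and the libraries labelled PCN 67, 49 and 62. PCN was apart from both other groups, and WT and PN overlapped in CPM (0.0680–0.601 and 0.593–1.16). Dkk3 was higher in PCN by log2 changes of 3.31 ± 0.45 against WT (edgeR adjusted p = 3.81e-05) and 1.79 ± 0.28 against PN (9.18e-06). Without WT replicate 1 the change against WT was 4.18.

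Apcdd1, a membrane inhibitor that is itself a known Wnt target, was higher in both edited groups. It had 6.75, 6.60 and 5.96 CPM in WT, 24.9, 24.0 and 24.1 in PN, and 19.4, 19.3 and 18.6 in the libraries labelled PCN. The groups were ordered WT, PCN, PN without overlap. Its changes against WT were 1.93 ± 0.12 in PN (edgeR adjusted p = 4.51e-08) and 1.57 ± 0.13 in PCN (3.81e-07), with -0.35 ± 0.09 between the edited groups (0.00236). Notum, the enzyme that removes the lipid from Wnts, had 10.5 ± 1.73 CPM for WT, 19.2 ± 1.87 for PN and 16.0 ± 0.913 for PCN, and was higher in both against WT (0.88 ± 0.14, edgeR adjusted p = 0.000282, and 0.61 ± 0.14, 0.00396). It shares 708 and 210 exon bases with antisense genes. Kremen1, a Dickkopf receptor that removes Lrp co-receptors, was the inhibitor that was lower, at 247 ± 17.5 CPM for WT, 189.6 ± 2.26 for PN and 185 ± 1.89 for PCN. Its changes were -0.37 ± 0.07 (edgeR adjusted p = 0.000781) and -0.42 ± 0.07 (0.000459). Kremen1 and Znrf3 lie 14766 bases apart on chromosome 11, both on the minus strand, and moved in opposite directions against WT. Wnt3a and Wnt9a, 16176 bases apart on the same chromosome and on opposite strands, were both lower in both edited groups. The PCN call of Wnt3a was lost under several alternatives. Wnt6 and Wnt10a lie 6194 bases apart on chromosome 1, and Wnt10a has no value for WT.

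**Figure D4:**
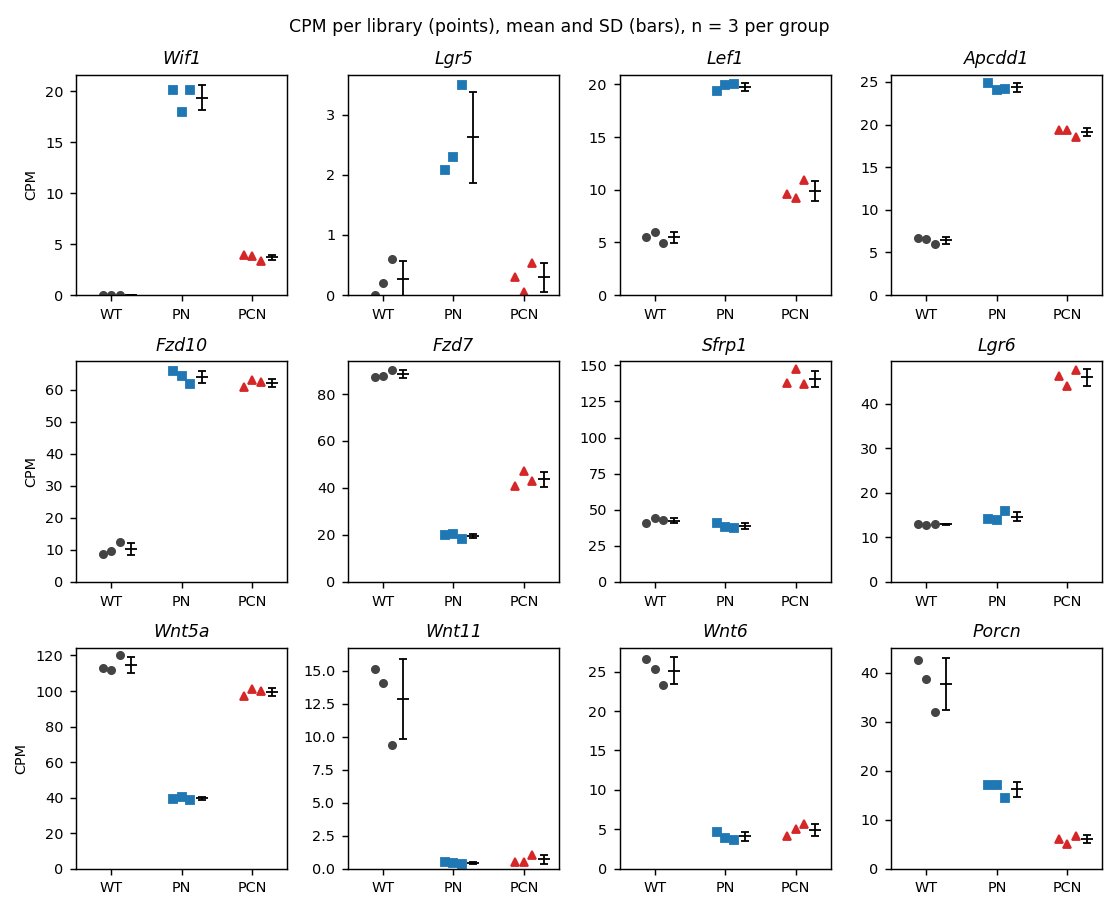
CPM of 12 members in each library (points, n = 3 per group) with the mean and SD as bars beside them, on linear axes. Wif1, Lgr5, Lef1 and Apcdd1 are highest in PN, Sfrp1 and Lgr6 in the libraries labelled PCN, Fzd10 is high in both, and Fzd7, Wnt5a, Wnt11, Wnt6 and Porcn are highest in WT.

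The intracellular regulators moved little. Dvl1, Dvl2 and Dvl3, the scaffolds that carry the signal from Frizzled, and Axin1 and Axin2, the scaffolds of the destruction complex, were each higher in the libraries labelled PCN than in WT, by log2 changes of 0.31 to 0.55. In PN, Dvl3 (0.41 ± 0.10, edgeR adjusted p = 0.00576) and Axin2 (0.37 ± 0.09, 0.00557) were higher, and Dvl1 and Dvl2 were outside the authors' table at 0.23 ± 0.11 and 0.28 ± 0.11. Axin2, a direct target of β-catenin signalling that is widely used as its readout, had 35.3, 38.4 and 31.5 CPM in WT. PN had 43.8, 44.8 and 46.4 CPM, and the libraries labelled PCN 39.8, 42.2 and 48.3. Both edited groups lay above WT, and they overlapped with each other. The PCN call for Axin2 (0.31 ± 0.10, edgeR adjusted p = 0.0287) was lost without PCN replicate 2 (0.0657) or 3 (0.191) and with the replicate number as a block (0.0512), and that for Axin1 (0.33 ± 0.10, 0.0161) without PCN replicate 2 (0.103) or 3 (0.0610). For the Dvl genes, WT replicate 3 was the lowest library. Without it the values of Dvl1 and Dvl2 in PN against WT were 0.10 and 0.16. Dvl2 shares 1151 exon bases with Acadvl on the opposite strand.

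Both transcription factors with values differed between the edited groups. Lef1, a DNA-binding partner of β-catenin and a Wnt target in its own right, is on chromosome 3 (131110471 to 131224356, plus strand). It had 5.54, 5.99 and 4.90 CPM in WT, 19.3, 20 and 20 in PN, and 9.56, 9.18 and 11.0 in the libraries labelled PCN. The groups were ordered WT, PCN, PN without overlap. Lef1 was higher than in WT by log2 changes of 1.86 ± 0.13 in PN (edgeR adjusted p = 1.53e-07) and 0.86 ± 0.16 in PCN (0.000796), and lower in PCN than in PN by -1.0 ± 0.11 (1.05e-08). An antisense gene shares 1208 exon bases with it. Tcf7l1, a family member that acts mostly as a repressor, had 2.25, 2.47 and 2.49 CPM in PN and 4.60, 5.17 and 5.10 in the libraries labelled PCN, with no value for WT. It went the other way, 1.04 ± 0.20 (edgeR adjusted p = 0.000136).

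RefSeq promoters (GRCm38.p6) of 300 bases were matched by symbol for 21 of the 36 members. They were searched on both strands for the TCF/LEF core CTTTGAT and the core GTGGGAA of RBPJ, the DNA-binding partner of Notch receptors. The 2 words do not overlap each other. CTTTGAT was found in 1 of 21 members (4.76%), Wnt11, and in 4.29% of 27025 genes with a promoter. GTGGGAA was found in 3 of 21 (14.3%), Lef1, Tcf7l1 and Wnt9a, and in 7.25% of all genes. The promoters of Wnt11 and Lef1 are shown as the Wnt ligand with the largest fall and the pathway factor with the largest rise, and because each holds a word. RefSeq gives 2 promoters for Wnt11, 1 of them without the word, and 4 for Lef1, 2 of them without it. Capitals mark the RefSeq start base and the word. In Wnt11 (chr7:98834862-98835161, plus strand) the word is on the reverse strand and begins 51 bases before that start. In Lef1 (chr3:131110073-131110372, plus strand) it begins 11 bases after that start. The gene's first base in the authors' tables lies inside the window for Wnt11. For Lef1 that base, 131110471, lies beyond the end of the window, so the word stands before the gene as the authors' tables place it. A match describes letters and is no evidence of a binding site.
Wnt11: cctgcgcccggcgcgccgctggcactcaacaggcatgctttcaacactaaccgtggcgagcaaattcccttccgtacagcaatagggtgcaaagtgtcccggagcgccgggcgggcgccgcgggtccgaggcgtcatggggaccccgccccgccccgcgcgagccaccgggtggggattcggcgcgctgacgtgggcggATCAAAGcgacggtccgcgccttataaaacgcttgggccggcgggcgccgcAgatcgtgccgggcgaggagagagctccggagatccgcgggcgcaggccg
Lef1: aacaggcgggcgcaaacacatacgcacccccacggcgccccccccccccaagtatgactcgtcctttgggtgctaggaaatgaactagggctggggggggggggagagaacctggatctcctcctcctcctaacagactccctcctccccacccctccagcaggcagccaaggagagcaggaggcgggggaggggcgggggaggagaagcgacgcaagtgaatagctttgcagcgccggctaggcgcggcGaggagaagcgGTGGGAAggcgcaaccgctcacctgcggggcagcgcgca

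Between the edited groups, the members with the largest differences were Lgr5, Wif1, Porcn and Lef1, which were lower in the libraries labelled PCN than in PN, and Sfrp1, Dkk3, Lgr6, Wnt5a, Fzd7 and Tcf7l1, which were higher. Of 4 fitted inhibitors 2 were higher and 2 lower, of 5 receptors 2 were higher and 3 lower, and of 4 genes of the ligand group 2 were higher and 2 lower. Fzd10, Wnt6, Wnt9a and Lgr4, which differed from WT in both groups, overlapped between them. At the edge of the authors' threshold of 0.05, the authors' deposited table for this pair gives Fzd1 an adjusted p of 0.0474, and that for PCN against WT gives Wnt5a 0.0475 and Wnt3a 0.0453. Just outside, Notum between the edited groups had a refitted adjusted p of 0.0517 (log2 change -0.27 ± 0.10).

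**Figure D5:**
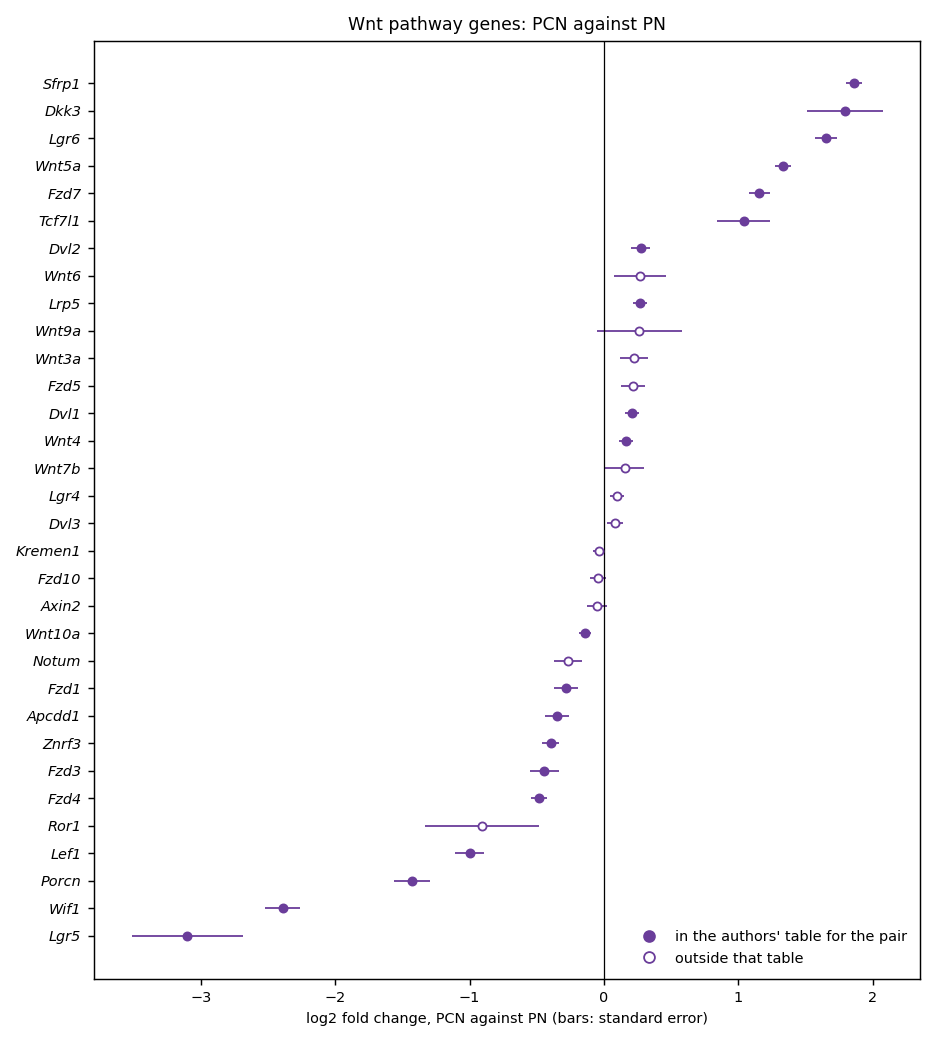
log2 fold change of members in the libraries labelled PCN against PN ± standard error, sorted by size; filled points are in the authors' table for the pair and open points are not. Sfrp1, Dkk3 and Lgr6 are at the high end and Lgr5, Wif1 and Porcn at the low end.

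Other genes of the pathway, from 6 lists, moved in both directions. The counts below are to be read beside the 34.6% of all listed genes called higher and 36.9% lower in PN, and 34.6% and 37.6% in PCN, with medians of -0.26 and -0.28 over all fitted genes. Several lists lay near that split, and nothing is read from their counts. Of 13 genes for Wnt secretion and other receptors, 7 are in the tables. In PN 3 were higher and none lower, and in the libraries labelled PCN 3 were higher and 2 lower (median log2 changes 1.04 and 0.84). Gpc3, a glypican that binds Wnts at the cell surface, had 1.69 ± 0.120 CPM in PN against 0.0895 ± 0.102 in WT, a log2 change of 4.14 ± 0.60 (edgeR adjusted p = 0.000102). Tspan12, a partner of Fzd4, was higher in PN (1.04 ± 0.21) and in PCN (1.09 ± 0.24), and the glypican Gpc4 also was (0.41 ± 0.08 and 0.91 ± 0.08). Wls, the Wnt carrier, had 176 ± 16.5 CPM for WT, 151 ± 6.10 for PN and 112 ± 3.08 for the libraries labelled PCN. In PCN it was called lower against WT (-0.64 ± 0.08) and against PN (-0.43 ± 0.05). The group means of Wls had the order that Porcn had, but unlike Porcn it was not called in PN against WT.

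Of 15 other extracellular inhibitors and modulators, 6 are in the tables: 1 was higher and 3 lower in PN, and 2 were higher and 3 lower in the libraries labelled PCN. Sulf2, which edits the heparan sulfate chains that hold Wnts, had 8.98 ± 0.527 CPM for WT, 0.0748 ± 0.0651 for PN and 0.0879 ± 0.0268 for PCN. Igfbp4, an IGF-binding protein that can also block Wnt receptors, had 7.60 ± 0.819, 17.9 ± 2.32 and 108 ± 6.70 CPM, and was higher in PCN than in PN by 2.59 ± 0.08 (edgeR adjusted p = 4.57e-19). Sostdc1, a secreted antagonist of BMP and Wnt, was higher in PCN than in WT (2.83 ± 0.34) and PN (1.81 ± 0.24). Like Sfrp1 and Dkk3, it had its highest level in the libraries labelled PCN.

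Of 16 genes of β-catenin and its destruction complex, 11 are in the tables: 3 were higher and 5 lower in PN, and 2 were higher and 6 lower in the libraries labelled PCN. Ctnnb1, which encodes β-catenin, had 884 ± 95.4 CPM for WT, 636 ± 16.5 for PN and 695 ± 20.8 for PCN (log2 changes -0.46 ± 0.08 and -0.34 ± 0.08). Frat1, an inhibitor of the kinase GSK3, was lower in PN (-1.22 ± 0.21), and the ubiquitin ligase gene Siah1b was higher in PN (1.03 ± 0.14) and PCN (1.00 ± 0.15). Of 17 nuclear cofactors, 8 are in the tables: 3 higher and 2 lower in PN, 3 higher and 3 lower in PCN. Hbp1, a repressor of Wnt target genes, was lower in PN (-0.45 ± 0.08) and lower still in PCN (-1.03 ± 0.10), and the coactivator Crebbp was higher in both (0.51 ± 0.11 and 0.73 ± 0.09).

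Of 18 planar cell polarity genes, 13 are in the tables: 2 were higher and 7 lower in PN, and 5 were higher and 4 lower in the libraries labelled PCN. Prickle2 and Prickle1, related cytoplasmic polarity proteins, moved apart. Prickle2 had 17.5 ± 3.27 CPM for WT, 1.30 ± 0.255 for PN and 7.68 ± 1.25 for PCN, so that PN was lowest as it was for Wnt5a. Prickle1 had 0.670 ± 0.264, 3.24 ± 0.742 and 3.88 ± 0.570 CPM. Celsr2, a polarity cadherin, was lower in PN (-0.46 ± 0.09) and higher in PCN (0.43 ± 0.09) than in WT. Mapk8, the kinase JNK1, was lower in PN (-0.96 ± 0.11) and lies on chromosome 14.

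Of 22 genes known as β-catenin targets in other tissues, 15 are in the tables: 3 were higher and 6 lower in PN, and 5 were higher and 8 lower in the libraries labelled PCN, with medians of -0.81 and -0.36. The PCN median was close to the -0.28 of all fitted genes. Only genes the authors called were fitted, so values near 0 rarely enter these medians, and nothing is read from them. Sox9, a transcription factor of progenitor cells, had 47.6 ± 5.70 CPM for WT, 8.09 ± 0.695 for PN and 9.92 ± 1.07 for PCN (-2.55 ± 0.12 and -2.26 ± 0.13). Ephb2, an ephrin receptor, was lower in PN (-1.23 ± 0.11) and in PCN (-0.36 ± 0.10), and higher in PCN than in PN (0.88 ± 0.10). Tnfrsf19, a receptor known as Troy, was higher in PN (1.11 ± 0.10) and PCN (0.44 ± 0.11), though on chromosome 14, and lower in PCN than in PN (-0.66 ± 0.07). Bmp4, also on chromosome 14, was higher in PCN than in WT (1.70 ± 0.48) at a low level of 1.1 ± 0.0390 CPM.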

How the data were processed

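Total RNA of 9 organoid libraries was analysed from 3 deposited tables, 1 per pair of groups, each holding genes with an adjusted p under 0.05. Per the submitters' processing notes, CASAVA, DESeq and GRCm38 (mm10) were used, and the sources used here do not give the aligner, read counter or annotation. The raw counts per gene are as deposited. Dividing the authors' counts by the deposited normalized signal returned a constant for each library and pair, its size factor. FPKM, log2 fold changes, p-values and adjusted p are columns made by the authors. Library totals and the numbers of genes adjusted over (17165, 17300 and 14758, an exact fit for 92.9%, 93.5% and 91.9% of listed genes) were worked back from these columns.

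The tool for each pair was edgeR 4.0.16 (R 4.3.3; quasi-likelihood fit with robust dispersion and filterByExpr), run on the counts of that pair's table with the authors' size factors, and p-values were adjusted over those numbers by Benjamini-Hochberg. The biological coefficients of variation were 0.0870, 0.0925 and 0.0505. The fit was checked on simulated counts. The standard error is the size of the log2 change over the square root of F. Genes outside a pair's table were given values by a fit with them added and could not be called. Intervals for genes of few counts are exact at 95%. Alternatives were DESeq2 1.42.0, TMM, library totals alone, no filter, the replicate number as a block, 1 fit over 9 libraries and leaving out each library.

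A rule set out at most 12 members per comparison for full statistics (adjusted p under 0.05, no overlap, at least 1 CPM in the higher group, largest changes first) and Wif1. Log2 changes and adjusted p of other members were given beyond that rule. For Wif1 and Ror1 against WT, bounds or ratios from counts stand in place of the fitted values. Up to 3 genes were named per list by size of change, while Wls, Ctnnb1 and some values of Celsr2, Mapk8, Ephb2 and Sostdc1 were chosen after their values were seen. The members and lists were chosen with earlier results of these data known. Coordinates are those of the authors' tables. GENCODE M21 holds 8732 of the 8742 gene identifiers, and for 96.0% of the 8742 its coordinates are equal. Samples with the same number did not deviate together (correlations -0.10 to 0.10 over 9 pairs), so the numbers were not taken as pairs.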

Additional observations from a re-analysis of the deposited data

How the results depend on the processing

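No direction of a fitted member was reversed under any alternative run. DESeq2, library totals alone and no filter on low counts lost no call of a member. TMM scaling lost Wnt3a and Wnt5a in PCN against WT and Wnt4 in PCN against PN (adjusted p = 0.0762), and moved the median log2 change of all fitted genes by 0.07, 0.07 and -0.03. It gave 3043 genes higher and 2948 lower in PN against WT, 3061 and 3022 in PCN against WT, and 1704 and 1709 in PCN against PN. With the replicate number as a block, Wnt5a (0.128) and Axin2 (0.0512) in PCN against WT and Wnt4 (0.0712) and Wnt10a (0.0769) in PCN against PN were lost, and no other call of a member changed. The samples share only a number, so these losses do not describe weaker effects. In 1 fit over 9 libraries, 6 members were higher in PCN than in PN, against 10: Wnt4, Dvl1 and Dvl2 missed the threshold, and Tcf7l1 has no WT counts to enter. Fzd1 was lost there too. Leaving out 1 library gave 14–15 members higher and 11 lower in PN against WT, 15–18 and 8–10 in PCN against WT, and 9–10 and 8–10 in PCN against PN. All calls then numbered 5578–6231, 5647–6341 and 3217–3384, against 6248, 6316 and 3507. Wnt4 in PCN against PN missed the threshold without any 1 PN library or PCN replicate 2 (0.0506 to 0.168). Depth limits Ror1, Wnt10b, Lgr5, Dkk3, the edited levels of Wnt11 and Wnt9a and the PN level of Tcf7l1, with under 70 counts a library, and the PN level of Wnt6 and the PCN level of Wif1, with 63 to 79.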
